A study of Mus musculus with 4 samples.

Results

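The 10 genes described here encode proteoglycans of the arterial wall: decorin (Dcn), biglycan (Bgn), lumican (Lum), fibromodulin (Fmod), osteoglycin (Ogn), Prelp and asporin (Aspn), which are small leucine-rich proteins, and versican (Vcan), aggrecan (Acan) and perlecan (Hspg2), which are large. They were chosen by symbol, as all probe sets that the platform annotation assigns to 1 of these genes alone, which gave 29 of the 45101 probe sets on the array. Of the 29, 23 passed the filter on low values described below, and all 10 genes were represented among the 11718 genes compared.

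Transcripts of mouse aorta were read on 4 Affymetrix arrays, 1 for each combination of strain and diet. The control animals (B6) were C57BL/6 mice of the apoE-/- genotype, without apolipoprotein E, with atherosclerosis given as their disease state. The congenic animals (Ath29) also carry C57BL/6 as their strain label, with resistance to the disease. The labels give the apoE-/- genotype for the controls only. Weaning onto chow took place at 3 weeks. From week 4 each strain was either kept on chow or given Western diet, for 2 weeks. Arrays are named by strain and diet, as in B6 chow. Whether each array carried RNA from 1 mouse or a pool is not stated, and the spread between mice is not known for any value below.

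Proteoglycans consist of a core protein that carries sulfated glycosaminoglycan chains. In the intima of arteries the negatively charged chains bind positively charged stretches of apolipoprotein B, which holds low density lipoprotein in the wall at the start of atherosclerosis. Versican and biglycan, with chondroitin and dermatan sulfate chains, are made largely by smooth muscle cells and are found with retained lipoprotein, while decorin, lumican and fibromodulin bind collagen fibrils and perlecan carries heparan sulfate in basement membranes. The arrays measure the core protein transcripts and not the chains.

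The genes lie on 6 chromosomes, several of them side by side in the reference gene order. Prelp and Fmod are neighbours on chromosome 1, with the related gene Optc on the other side of Prelp. Dcn and Lum adjoin Kera and Epyc on chromosome 10, and Aspn and Ogn flank Omd on chromosome 13. Vcan, also on chromosome 13, is next to Hapln1, and Acan, on chromosome 7, is next to Hapln3, which both encode link proteins that tie these large proteoglycans to hyaluronan. Hspg2 is on chromosome 4 and Bgn on X. None of the 10 lies on chromosome 9, the chromosome given in the titles of the Ath29 arrays.

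Promoter sequences are given for the genes with the largest and the smallest difference between strains in the response to diet. Vcan, Prelp and Fmod had the largest and Bgn and Aspn the smallest. The 250 bases before the annotated start of each gene are RefSeq sequences of build GRCm38.p6, at chr13:89742513-89742762 (minus strand) for Vcan, chr1:133921402-133921651 (minus strand) for Prelp, chr1:134037004-134037253 (plus strand) for Fmod, chrX:73483351-73483600 (plus strand) for Bgn and chr13:49544193-49544442 (plus strand) for Aspn. They are written 5′ to 3′ along the gene, with matches to 3 motifs in capitals on either strand: the TATA box (TATAAA), the CCAAT box (CCAAT) and the GC box (GGGCGG), which may overlap one another.
Vcan: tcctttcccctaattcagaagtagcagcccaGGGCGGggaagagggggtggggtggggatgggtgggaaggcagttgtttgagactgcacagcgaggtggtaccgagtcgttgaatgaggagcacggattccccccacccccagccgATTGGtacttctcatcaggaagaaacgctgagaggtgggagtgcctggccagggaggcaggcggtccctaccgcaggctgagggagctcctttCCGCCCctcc
Prelp: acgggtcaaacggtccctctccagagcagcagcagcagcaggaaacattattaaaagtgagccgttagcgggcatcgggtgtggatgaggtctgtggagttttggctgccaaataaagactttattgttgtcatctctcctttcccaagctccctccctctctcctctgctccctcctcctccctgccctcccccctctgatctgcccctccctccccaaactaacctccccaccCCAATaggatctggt
Fmod: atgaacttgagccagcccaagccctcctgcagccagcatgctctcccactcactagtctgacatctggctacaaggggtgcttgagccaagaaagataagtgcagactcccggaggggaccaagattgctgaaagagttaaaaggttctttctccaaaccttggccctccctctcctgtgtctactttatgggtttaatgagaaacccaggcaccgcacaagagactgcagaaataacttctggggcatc
Bgn: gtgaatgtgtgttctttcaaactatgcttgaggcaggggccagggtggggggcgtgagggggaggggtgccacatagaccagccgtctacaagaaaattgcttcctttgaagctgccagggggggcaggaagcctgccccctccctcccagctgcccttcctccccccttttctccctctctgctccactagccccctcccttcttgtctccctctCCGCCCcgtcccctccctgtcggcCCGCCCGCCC
Aspn: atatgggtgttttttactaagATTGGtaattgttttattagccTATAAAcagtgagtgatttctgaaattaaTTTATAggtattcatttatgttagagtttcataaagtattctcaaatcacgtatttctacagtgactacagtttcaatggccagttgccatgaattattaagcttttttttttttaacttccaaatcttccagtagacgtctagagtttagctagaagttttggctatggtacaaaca

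The promoters of the 3 genes with the largest difference had no common motif among those searched. Vcan held a CCAAT box 103 bases before its start and 2 GC boxes, the nearer at 10 bases, Prelp held a CCAAT box 15 bases before its start, and Fmod held no match to any of the 3. Bgn had 3 GC boxes, the nearest at 6 bases, and a GC content of 64.4%. Aspn had 2 TATA boxes, the nearer at 178 bases, and a CCAAT box at 229 bases, with a GC content of 30.0% against 62.4% for Vcan, 51.2% for Fmod and a median of 52.4% over the 32851 promoters of the table. In windows of the same length, 12.4% of those promoters held a TATA box, 33.8% a CCAAT box and 32.7% a GC box. The AP-1 site (TGANTCA), present in 6.75% of them, matched in none of the 8 genes found in the table, which did not include Dcn and Lum.

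The values below are intensities on a linear scale after each array was set to a common median, which multiplied the deposited values by 0.990 to 1.02. Differences are on the log2 scale, where 1 is 2-fold. Intensities of different probe sets were not set against each other to rank the 10 genes. Marker genes were an exception, read for whether they were detected and summed by list. In such sums the strongest probe sets weigh most. All 10 aortic smooth muscle markers passed the filter. Acta2, smooth muscle actin, read 10393 to 11271, and Smtn, the weakest of them, 82.4 to 138. The hepatocyte gene Alb read 33.7 to 64.0, although liver is the tissue named in the extract protocol. Of 10 hepatocyte markers 5 passed the filter, and 4 of these read at most 94.0, while the fifth, Cyp2e1, chosen after its values were seen, read 2542 to 4852 with its arrays in the same order as the brown fat markers below. Measures of RNA integrity are the 3' signal of a control gene over its middle or 5' signal. They were far above 1 on all 4 arrays, at least 5.10 to the middle and at least 22.8 to the 5' end. What this 3' bias does to the values below was not tested. Between strains the ratios did not run one way. On chow the actin ratio to the middle was 5.10 (B6) and 10.2 (Ath29) and that to the 5' end 24.4 and 31.5, higher in Ath29 mice, while the Gapdh ratios were 9.23 and 8.87 and 31.3 and 22.8, lower in Ath29 mice. With the Western diet the actin ratios were 5.63 (B6) and 7.62 (Ath29) and 25.4 and 28.5, and the Gapdh ratio to the middle 9.54 and 10.6. The Gapdh ratio to the 5' end was then 29.0 in B6 mice and slightly lower in Ath29 mice.

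Versican, the large chondroitin sulfate proteoglycan of the intima, read 1317 (B6) and 599 (Ath29) on chow and 891 (B6) and 1141 (Ath29) on Western diet. It was highest in B6 chow and lowest in Ath29 chow. Vcan was thus 2.20-fold lower in Ath29 than in B6 mice on chow, a log2 difference of -1.14, and was the only 1 of the 10 genes at least 2-fold lower there, where 1.95% of all genes were. Under other settings the value on chow ran from -1.35 to 0.07. On Western diet the strain difference was 0.36. Western diet went with a lower Vcan value in B6 mice (-0.56) and a higher one in Ath29 mice (0.93). A pair of other Vcan probe sets also read lowest in Ath29 chow. They gave -0.70 and -0.83 between strains on chow, and 0.20 and 0.54 between diets in Ath29 mice. Between strains on Western diet they gave -0.34 and 0.11, so the direction there depends on the probe set. The other 5 Vcan probe sets lay below the filter, and 2 of these were at the intensity floor of 9.59 on every array.

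Aggrecan, the large aggregating proteoglycan best known from cartilage, read 131 (B6) and 102 (Ath29) on chow and 110 (B6) and 147 (Ath29) on Western diet on its single probe set. The 2 strains overlapped, with the highest and the lowest value both in Ath29 mice. The strain difference was -0.36 on chow and 0.42 on Western diet, and the diet difference -0.26 in B6 and 0.52 in Ath29 mice. Of the 14 cartilage markers, 7 were below the filter. The cartilage collagen genes Col2a1 and Col9a2 read at most 2.79 and 2.51 on any array, under the floor, while Col9a1 read 15.4 to 40.2. Of the 7 that passed, Comp, a matrix protein of cartilage and tendon, was also highest in Ath29 Western, at 331, with strain differences of -0.45 on chow and 0.46 on Western diet. The summed intensity of the 14 was 696 (B6) and 692 (Ath29) on chow and 601 (B6) and 773 (Ath29) on Western diet. Comp alone read 154 in Ath29 chow and 331 in Ath29 Western. Between diets in Ath29 mice 5 of the 7 lay below 0 and 2 above, with a median of -0.05. The part of cartilage in the Acan values was not tested. Comp was chosen after its values were seen.

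Perlecan, the heparan sulfate proteoglycan of basement membranes, read 434 (B6) and 327 (Ath29) on chow and 340 (B6) and 394 (Ath29) on Western diet. The Ath29 value on chow lay below both B6 values and that on Western diet between them. The Hspg2 strain difference was -0.41 on chow and 0.21 on Western diet, and the diet difference -0.35 in B6 and 0.27 in Ath29 mice. Its other probe set was below the filter.

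Fibromodulin, which controls the thickness of collagen fibrils, had its highest value in Ath29 Western. The probe set with the strongest signal read 1592 (B6) and 1201 (Ath29) on chow and 1140 (B6) and 2448 (Ath29) on Western diet. Fmod was 2.15-fold higher in Ath29 than in B6 mice on Western diet (1.10), the only 1 of the 10 genes at least 2-fold higher, against 0.845% of all genes. It was also 2.04-fold higher on Western diet than on chow in Ath29 mice (1.03), again alone among the 10, against 1.33% of all genes. In B6 mice the diet difference was -0.48. Under other scalings of the arrays the value for diet in Ath29 mice was as low as 0.40, under 2-fold. All 6 Fmod probe sets passed the filter, and all 6 read highest in Ath29 Western. They gave 0.82 to 1.24 between strains on Western diet, 1.03 to 1.44 between diets in Ath29 mice, -0.58 to -0.31 between diets in B6 mice and -0.93 to -0.32 between strains on chow. Of the 6, 5 are of a type that can bind several transcripts. The other, which reads Fmod alone but weakly (47.8 and 25.1 on chow, then 38.6 and 68.0 with the Western diet, B6 before Ath29), gave 0.82 between strains on Western diet, under 2-fold, and 1.44 between diets in Ath29 mice, from a chow value below the filter's intensity of 27.4.

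Prelp, which anchors basement membranes to the collagen beneath, read 586 (B6) and 313 (Ath29) on chow and 373 (B6) and 518 (Ath29) on Western diet. Like Vcan, it was highest in B6 chow and lowest in Ath29 chow. The strain difference was -0.90 on chow and 0.47 on Western diet, and the diet difference -0.65 in B6 and 0.73 in Ath29 mice. This probe set can bind several transcripts. A probe set without that property read 168 and 166 on chow, then 157 and 168 with the Western diet, B6 before Ath29, and its differences ran from -0.10 to 0.10. The Prelp values above therefore rest on 1 of 2 probe sets.

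Lumican, which like fibromodulin binds collagen fibrils, differed by strain in the same direction on both diets. Its single probe set read 1416 in B6 chow and 1214 in B6 Western against 728 in Ath29 chow and 932 in Ath29 Western, so both Ath29 values lay below both B6 values. Lum was 1.95-fold lower in Ath29 mice without the Western diet (-0.96) and 1.30-fold lower with it (-0.38). The diet difference was -0.22 in B6 and 0.36 in Ath29 mice. An additive fit of strain and diet with limma takes its error from the disagreement between the 2 strain differences, not from the spread between mice. That error is moderated towards a value shared by all genes, so it is not the gene's own disagreement alone. In this fit the strain effect of Lum was -0.67 with a standard error of 0.27. The unadjusted p was 0.0452 and the adjusted p over all genes 1.0, and with 5 of the other settings, among them quantile normalization and no filter, no gene of the 10 had an unadjusted p under 0.05. This fit called 0 of the 11718 genes (0.0%) at an adjusted p under 0.05 for strain and 0 (0.0%) for diet. At an unadjusted p under 0.05 it called 304 genes (2.59%) for strain, among the 10 genes only Lum, and 291 (2.48%) for diet, among the 10 genes none, with 0.51 as their lowest p.

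The remaining small proteoglycans differed little between arrays. Decorin, which binds collagen fibrils, read 6113 (B6) and 4887 (Ath29) on chow and 5922 (B6) and 5562 (Ath29) on Western diet, with both B6 values above both Ath29 values and with Ath29 minus B6 at -0.32 on chow and -0.09 after the Western diet. Another Dcn probe set gave -0.15 and 0.06. Biglycan, a close relative of decorin, read 8956 and 8321 on chow, then 8052 and 8540 with the Western diet, B6 before Ath29, and its 4 differences ran from -0.15 to 0.08. A pair of other Bgn probe sets gave larger values, each -0.28 between strains on chow, 0.18 and 0.19 on Western diet, and between diets -0.32 and -0.30 (B6) and 0.14 and 0.18 (Ath29). Osteoglycin, which regulates collagen fibrils, read 7967 and 6959 on chow, then 7025 and 7391 with the Western diet, with differences from -0.20 to 0.09, and its other probe set gave -0.37 and 0.28 between strains and the same between diets. Asporin, which binds collagen and transforming growth factor beta, read 2815 and 2701 on chow, then 2528 and 2514 with the Western diet, and none of its differences was larger than 0.16 in size, while its other probe set gave -0.11 to 0.05. For Dcn, Bgn, Ogn and Aspn the direction of most of these small differences turned under at least 1 other scaling of the arrays. The differences of Lum, Acan and Hspg2, except between strains on Western diet, turned with arrays set to a common median of smooth muscle markers. So did the strain differences of Vcan, Fmod and Prelp on chow.

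**Figure D1:**
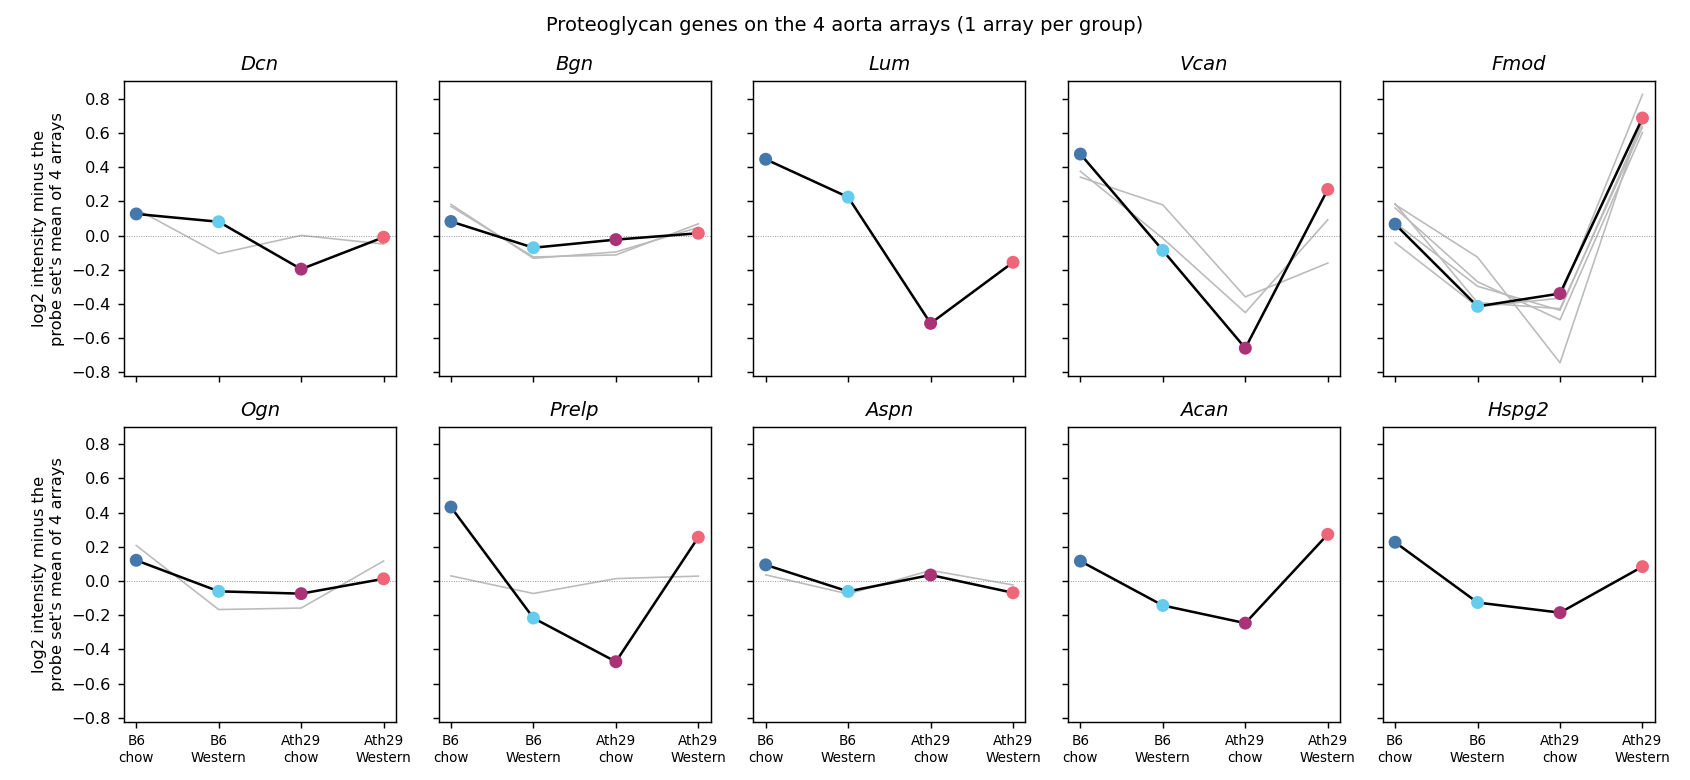
Log2 intensity of each gene on the 4 arrays, minus the mean of the 4 for that probe set; coloured points joined by a black line are the probe set read for the gene, and grey lines are its other probe sets above the filter. Vcan, Lum, Prelp, Hspg2 and Dcn are lowest in Ath29 chow, Fmod is highest in Ath29 Western on all 6 probe sets, and Bgn, Ogn and Aspn are nearly flat.

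The comparison of strains on chow asks whether the wall of the resistant congenic mice differs without the dietary challenge. Scaling moves all genes of an array together, so the family is described relative to the median of all genes compared, which was -0.08 on chow. There 9 of the 10 genes lay below that median, against 50.0% of all genes by definition, and Aspn lay just above it. B6 chow was the highest of the 4 arrays for 8 of the 10 genes (34.9% of all genes), and Ath29 chow the lowest for 7 (31.8%). The median of the 10 was -0.38, and none was at least 2-fold higher, against 2.16% of all genes. At 1.5-fold, Vcan, Lum and Prelp were lower (3 of 10, against 9.68% of all genes), and none reached 3-fold (0.23%). A shift of a whole array moves the 10 genes and that median alike and cannot change this count. Arrays were also set to a common median of 10 smooth muscle markers, which moved the median of all genes to 1.13. All 10 proteoglycan values were then above 0, Vcan at 0.07. That marker median, on the log2 scale, was 10.8 in B6 chow and 9.61 in Ath29 chow. In B6 chow it lay between Myl9 and Myh11, whose strain differences on chow were -1.25 and -1.30, against a median of -0.29 over the markers. With these markers scaled gene by gene, the median of the 10 proteoglycan genes on chow was -0.13. Contractile smooth muscle genes, from the cells that make much of the versican and biglycan of the wall, moved with the 10 genes: 9 of 10 lay below the median of all genes, with a median of -0.29 and with Myh11, smooth muscle myosin, at -1.30. Their summed intensity was 31586 (B6) and 25513 (Ath29) on chow and 27830 (B6) and 28406 (Ath29) on Western diet, and all 10 passed the filter. Of 12 fibroblast markers 10 passed it, 8 of them below the median of all genes on chow, with a summed intensity of 36346 (B6) and 33701 (Ath29) on chow and 30530 (B6) and 33567 (Ath29) on Western diet. Fat markers ran the other way between strains on chow. All 8 brown fat markers were above 0, with a median of 1.16. Of the 6 white fat markers compared, 5 were above 0 and 1 below, with a median of 0.74. In whole aorta fewer cells of a type and less RNA per cell cannot be told apart. The part of smooth muscle, fibroblast or fat content or of RNA integrity in the proteoglycan values was not tested.

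On Western diet, the comparison with the challenge, 7 of the 10 genes lay above the median of all genes, which was 0.00. The median of the 10 was 0.15. Lum, Dcn and Aspn lay below. Fmod, at 1.10, and Prelp, Acan and Vcan, at 0.47, 0.42 and 0.36, led those above. None was at least 2-fold lower (2.03% of all genes) or 3-fold higher (0.119%). B6 Western, the other side of this comparison, held the most signal of heart muscle and fat. The summed intensity of 11 heart muscle markers was 8094 there, against 796 on the other B6 array and 622 (chow) and 493 (Western) for Ath29. That of 8 brown fat markers was 8436 (B6) and 13775 (Ath29) on chow and 17999 (B6) and 10588 (Ath29) on Western diet. Of the heart markers 9 passed the filter and of the brown fat markers all 8, among them Ucp1, the uncoupling protein, at 3526 to 5453. The part of these tissues in the proteoglycan values was not tested.

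**Figure D2:**
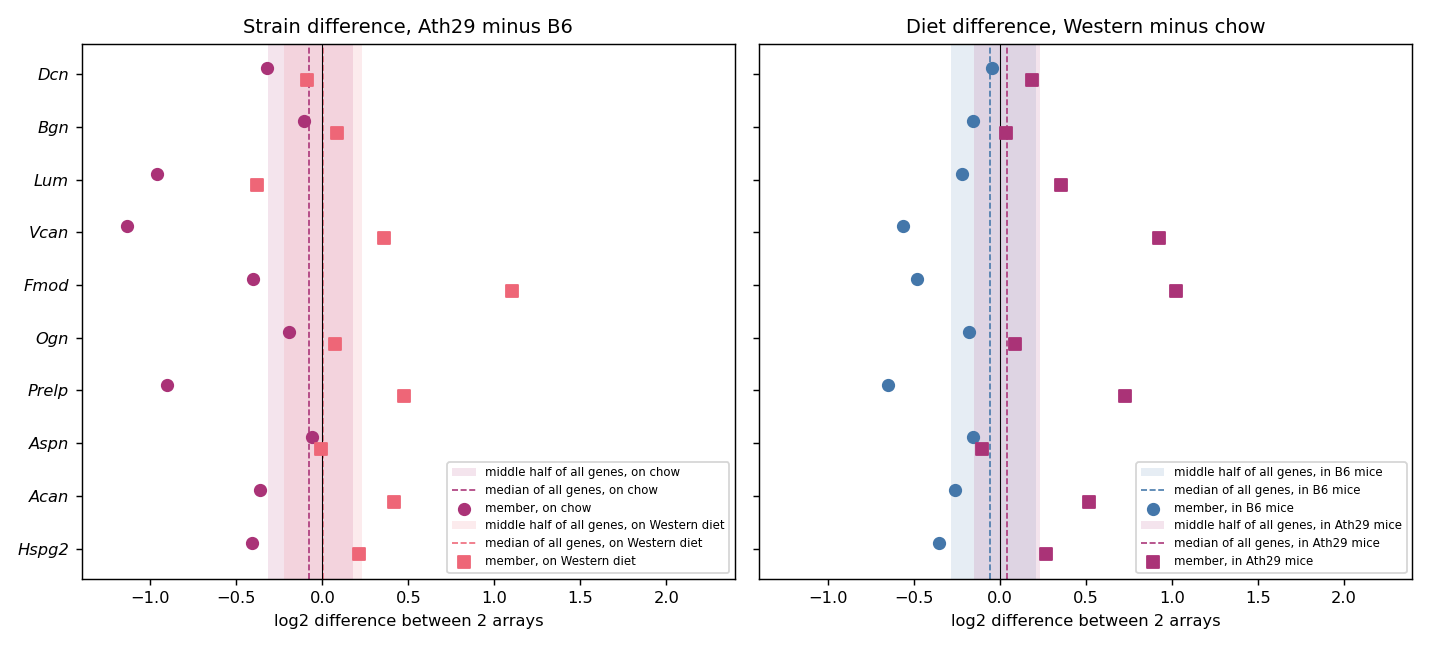
Log2 differences of the 10 genes between strains on each diet (left) and between diets in each strain (right), with the median (dashed) and the range between the quartiles (shaded) of all 11718 genes for each difference. On chow 9 of 10 genes lie left of the median of all genes and on Western diet 7 of 10 lie right of it, with Vcan, Lum and Prelp farthest left on chow and Fmod farthest right on Western diet.

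The comparison of diets asks how 2 weeks of Western diet relate to proteoglycan transcripts in each strain. It uses the same 4 arrays as the comparison of strains and is not independent of it. In B6 mice the median of the 10 genes was -0.24 against -0.06 for all genes, and 9 of 10 lay below the median of all genes, all but Dcn. None was 2-fold different, against 4.11% of all genes higher and 1.17% lower, and Prelp alone was at least 1.5-fold lower, against 7.13% of all genes. In Ath29 mice the median was 0.31 against 0.04 for all genes, and 8 of 10 lay above the latter, all but Bgn and Aspn. At 1.5-fold, Fmod, Vcan and Prelp were higher there (3 of 10, against 6.03% of all genes). None was at least 2-fold lower (0.853%) or 3-fold higher (0.265%). With arrays at a common smooth muscle median the 2 medians were 0.22 in B6 and -0.31 in Ath29 mice, where those of all genes were 0.41 and -0.59. Macrophage markers moved with diet in both strains: all 12 passed the filter, and their summed intensity was 4980 (B6) and 6032 (Ath29) on chow and 9988 (B6) and 9913 (Ath29) on Western diet. Their part in the proteoglycan values was not tested.

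The difference between these 2 responses, the diet difference in Ath29 mice minus that in B6 mice, was above 0 for all 10 genes (58.8% of all genes) and above the median of all genes, 0.11, for 9 of them. The diet difference was below 0 in B6 and above 0 in Ath29 mice for 9 of the 10 (36.9% of all genes), and the strain difference below 0 on chow and above 0 on Western diet for 7 (32.2%). The median of the strain by diet difference was 0.60. Fmod had 1.51, Vcan 1.49 and Prelp 1.38, so 3 of 10 exceeded 2-fold, against 4.95% of all genes, and none was 2-fold below 0, against 6.76%. Acan followed with 0.78, Hspg2 with 0.62 and Lum with 0.58. For Fmod the 6 probe sets gave 1.47 to 1.74. For Vcan the 3 probe sets above the filter gave 0.36 to 1.49 and for Prelp the 2 gave 0.12 and 1.38, so only for Fmod did every probe set exceed 2-fold. With 1 array per group the difference between the responses has no test. With arrays set to a common median of smooth muscle markers, the median of the 10 genes was -0.49 while that of all genes was -0.98. Fmod, Vcan and Prelp stayed above 0 under all 13 alternatives run for this quantity, at no less than 0.42, 0.40 and 0.12.

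**Figure D3:**
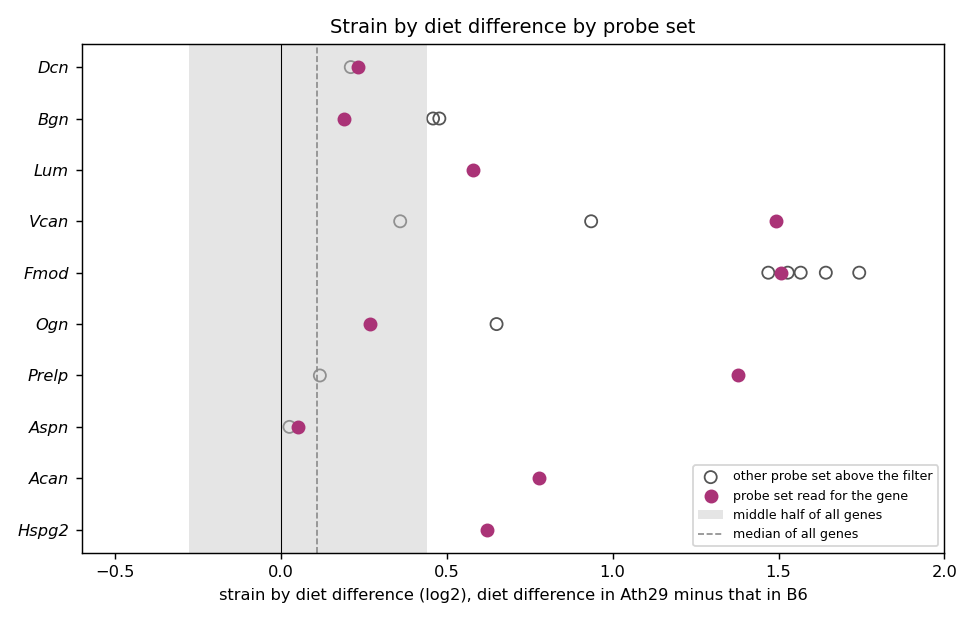
Strain by diet difference (log2) of every probe set above the filter, by gene, with the probe set read for the gene filled and the others open; the shaded band is the range between the quartiles of all genes. The 6 Fmod probe sets lie between 1.47 and 1.74, while those of Vcan and Prelp spread from 0.36 to 1.49 and from 0.12 to 1.38.

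Other genes of the pathway were read from lists by function. Enzymes that build and edit heparan sulfate are described first: 15 of 15 genes lay below the median of all genes between diets in B6 mice and 10 of 15 above it in Ath29 mice, with medians of -0.36 and 0.09. Of the collagens and other matrix partners, 15 of 16 lay below in B6 mice and 6 of 16 above in Ath29 mice, with medians of -0.36 and 0.00. Col1a1, a chain of type I collagen, was -0.96 in B6 and -0.28 in Ath29 mice. Another Col1a1 probe set, below the filter, gave -1.49 and 0.09. Enzymes of the linker region and of chondroitin and dermatan chains had medians of -0.22 and 0.16, with 12 of 19 below in B6 mice and 11 of 19 above in Ath29 mice. In these 3 lists no gene was at least 2-fold different by diet in either strain. Cell surface proteoglycans, with the syndecans and glypicans, had medians of -0.14 and 0.25. The medians of these 4 lists were below 0 in B6 mice, as for the 10 genes. In Ath29 mice the matrix partners were divided evenly, with 8 genes above 0 and 8 below, and the other medians were above 0.

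Proteases that cleave the core proteins, listed with the inhibitor Timp3, had median diet differences of -0.20 (B6) and 0.17 (Ath29) over 11 genes. Mmp3, stromelysin, was the only 1 at least 2-fold different by diet, at 1.67 in Ath29 mice and 0.51 in B6 mice, with intensities of 382 and 544 in B6 chow and Western and 212 and 673 in Ath29 chow and Western. Adamts4, an aggrecanase, was 0.57 and 0.46, and Adamts5, another, was -0.11 and -0.04 on the probe set read for it, and -0.05 and -0.13 and 0.16 and 0.16 on other probe sets above the filter, so its direction depends on the probe set. The link protein gene Hapln1, beside Vcan on the chromosome, was -1.08 in B6 and -0.19 in Ath29 mice, from values of 40.2 to 85.0. Its other probe sets, all below the filter, disagreed, with -1.28, 0.27 and -0.25 in B6 and -1.33, 0.09 and -0.88 in Ath29 mice. Of the 14 genes of hyaluronan synthesis and turnover, 8 lay below the filter, among them the synthases Has1 and Has2. The list of lipoprotein retention partners ran opposite to the 10 proteoglycan genes, with medians of 0.22 in B6 and -0.13 in Ath29 mice over 6 genes. Lipoprotein lipase (Lpl), which bridges lipoproteins and proteoglycans and is also abundant in fat, read 7790 (B6) and 9297 (Ath29) on chow and 10206 (B6) and 8204 (Ath29) on Western diet, the same order as the brown fat markers.

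**Figure D4:**
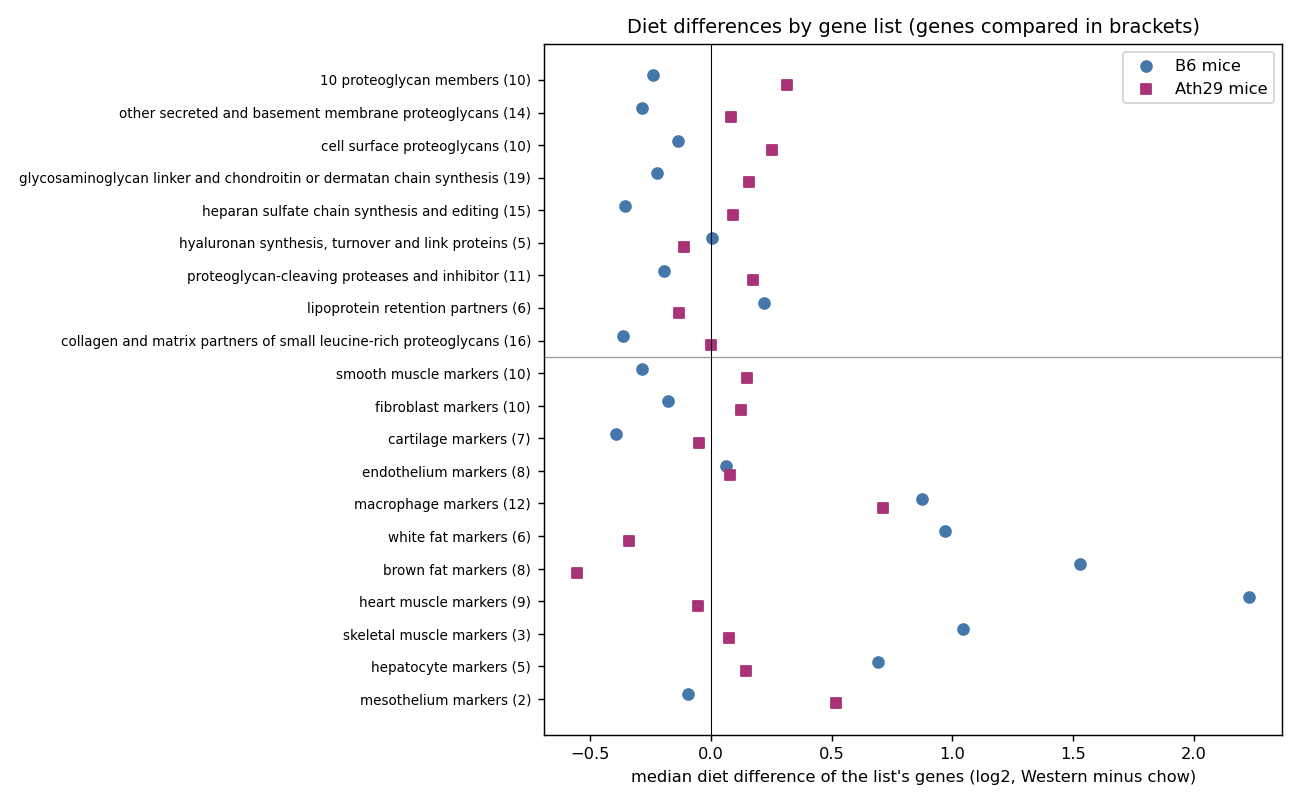
Median diet difference (log2, Western minus chow) of each gene list in B6 mice (circles) and Ath29 mice (squares), pathway lists above the line and cell type markers below it; some genes stand in more than 1 list. The proteoglycan, heparan sulfate, chondroitin and smooth muscle lists lie below 0 in B6 mice and above 0 in Ath29 mice, with arrays at a common median, and the fat lists lie on the opposite sides.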

How the data were processed

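Biotin-labelled cRNA from 8 ug of total RNA was hybridised to Affymetrix arrays, per the labels' protocols. The deposited values are linear intensities between 0.57 and 13421. How the authors summarised, corrected and scaled them is not given in the sources used here. Array number limits the precision.

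Of 45101 probe sets, 64 are controls and were left out, 34945 have 1 gene symbol in the platform annotation, 932 have several and 9160 none. Symbols were updated by gene identifier to GRCm38.p6, which held 34741 of the 34945. Intensities were taken to log2, arrays were set to a common median, with a floor of 9.59, the 25th percentile. Probe sets with a mean log2 above the median of all, 4.78, were kept (22518), and a gene was read from its kept probe set with the highest mean. Groups came from the sample titles. The additive fit used limma 3.58.1 in R 4.3.3 with 1 residual degree of freedom, variances moderated over all genes and Benjamini-Hochberg adjustment, and was tested on simulated data. All else used Python 3.11.15. Named were the 10 genes with all their probe sets, up to 3 genes per pathway list for strain and for diet, ranked by the smaller of 2 differences of the same sign, and the first 3 markers of each cell type. Myh11, Acta2, Alb, Ucp1, Col2a1 and Col9a2 are such markers. Lpl, Has1 and Has2, the markers Myl9 and Smtn and the genes named under other observations were chosen after their values were seen. The genes and lists were chosen with earlier results of these data known. Alternatives changed the scaling, filter, floor, choice of probe set and fold threshold, and 4 were added after the data were seen.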

Additional observations from a re-analysis of the deposited data

Results flagged for a closer look

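The diet difference had opposite directions in the 2 strains for 9 of the 10 genes, below 0 in B6 and above 0 in Ath29 mice, against 36.9% of all genes, with 1 array per group and no test of the difference. These directions are relative to 0. Relative to the median of all genes Dcn was above it in B6 mice, by 0.012, and Bgn below it in Ath29 mice, at -0.0051, and the Ath29 diet difference of Bgn turned in 5 of 14 alternatives. The gap between the diet differences of the strains was 1.51 for Fmod, 1.49 for Vcan, 1.38 for Prelp, 0.78 for Acan, 0.62 for Hspg2, 0.58 for Lum, 0.27 for Ogn, 0.23 for Dcn and 0.19 for Bgn on the log2 scale. For 7 of these, all but Lum and Dcn, the strain difference also had opposite directions on the 2 diets, against 32.2% of all genes, which is the same gap read the other way and adds nothing independent. No group had more than 1 array, so none could be searched for outlying samples.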

How the results depend on the processing

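The median differences of the 10 genes were -0.38 (strains, chow), 0.15 (strains, Western), -0.24 (diets, B6), 0.31 (diets, Ath29) and 0.60 (strain by diet), and medians that moved by under 0.1 are not repeated. Setting the arrays to a common fibroblast marker median gave -0.60, 0.040, -0.47, 0.18 and 0.70. A common smooth muscle marker median, which put all genes at 1.13, 0.12, 0.41, -0.59 and -0.98, gave 0.82, 0.26, 0.22, -0.31 and -0.49, with 4 directions turned, and Vcan on chow at 0.07. This marker median rests on the markers in the middle of each array's ranking, not on the differences of all markers. Medians taken gene by gene gave -0.13 on chow, -0.056 and 0.19 between diets and 0.29 for smooth muscle markers, and -0.20, -0.11, 0.19 and 0.35 for fibroblast markers. With the less specific probe sets left out, which may bind more than 1 transcript, the strain by diet median was 0.42. The shift of all genes is the cause by construction for the scalings, since the 10 genes kept their distance from the median of all genes. Fmod, Prelp and Aspn were then read from other probe sets.

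Counts of genes at least 2-fold different were small. The 1 gene lower on chow became 3 with the fibroblast median, 0 with the smooth muscle median (which had 3 higher), 0 with either gene-by-gene scaling and 0 with the mean of all probe sets. The 1 higher in Ath29 mice on Western diet became 0 with the fibroblast median and 0 with the less specific probe sets left out. The 1 higher by diet in Ath29 mice became 0 with a common 75th percentile, either marker median or either gene-by-gene scaling. The 3 genes of the strain by diet difference became 1 with the mean of all probe sets, and 0 with the smooth muscle median, which had 1 lower. With the less specific probe sets left out, Prelp fell to 0.12, while Fmod (1.74) and Vcan (1.49) stayed above 2-fold. At 1.5-fold 3 were lower on chow, 1 was lower by diet in B6 mice and 3 were higher by diet in Ath29 mice. At 3-fold there were 0 in each of the 3 places where 2-fold had 1. On chow 52.5% of all genes at least 2-fold different were higher in Ath29 mice, and 64.6% with a common 75th percentile, 20.0% and 99.9% with the fibroblast and smooth muscle medians. Scaling and filtering without the B6 Western or the Ath29 chow array left the differences that do not use them at -0.38 and 0.31, and at 0.15 and -0.24. The limma fit called 0 of the 10 genes at an adjusted p under 0.05 in each alternative run, while the unadjusted call of Lum for strain was lost with quantile normalization, a common 75th percentile, the smooth muscle median, no filter and the smooth muscle scaling by gene. Each difference rests on 1 array a side, the gene-by-gene scalings were chosen after seeing the data, and values below 27.4 were not told apart from background.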

Other observations

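Related genes beside the 10 on the chromosomes did not all share their pattern. Optc, the neighbour of Prelp, read 105 (B6) and 82.4 (Ath29) on chow and 55.7 (B6) and 85.4 (Ath29) on Western diet. Its differences had the same directions as those of Prelp. Between strains they were -0.34 on chow and 0.62 on Western diet, and between diets -0.91 in B6 and 0.05 in Ath29 mice. Optc was lowest in B6 Western, as was Bgn. Epyc, from the cluster of Dcn and Lum, was highest in Ath29 chow at 131, against 56.9 in B6 mice on chow and 75.2 (B6) and 78.1 (Ath29) on Western diet, so it lay opposite to Lum on chow. Omd, between Aspn and Ogn, read 145 to 180 and was highest in B6 chow. Kera read at most 12.6 on any array, below the filter.

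Cd44, the hyaluronan receptor, had the same highest array as Fmod. It read 785 (B6) and 643 (Ath29) on chow and 648 (B6) and 1069 (Ath29) on Western diet, a strain by diet difference of 1.01. Tgfb3, a transforming growth factor beta, read 469 (B6) and 249 (Ath29) on chow and 355 (B6) and 406 (Ath29) on Western diet and was lowest in Ath29 chow, like Vcan, with 1.11. These genes were picked from the fixed lists after their values were seen.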
